A study of Mus musculus with 7 samples.

Results

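Ribosomal protein genes were followed across 7 arrays of medullary thymic epithelial cells. The members were the 60 genes, of 19937 with a probe set of their own, whose symbol begins with Rpl or Rps and goes on, after an optional p, with a number and at most a letter (a, x, y or l) and further digits. The family was chosen by the measured difference between 2 of the arrays and the other 5, and its genes by symbol alone. Each gene was read from 1 probe set, the group of probes for 1 transcript, namely the one with the highest mean. By symbol, 22 members encode proteins of the small ribosomal subunit and 38 of the large subunit. A fixed list of paralogues, related copies with their own gene, holds 6 of the 60. RefSeq lists 59 of the 60 as protein coding and 1, Rps4l, as a transcribed pseudogene. A further 17 symbols of this kind had only probe sets shared with other genes and were not used here.

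The cells were thymic medullary epithelial cells (MECs) with high MHC class II, flow-sorted from NOD mice. The reconRAG1KO group (4 arrays) came from NOD mice with null RAG1, which cannot rearrange antigen receptors, and the reconSCID group (3 arrays) from NOD mice carrying SCID, a mutation of DNA-PK, the DNA-dependent protein kinase. Mice of both groups were pups of 2 to 4 days when they received bone marrow into the peritoneum, 6 h after 200 rad of irradiation, and their thymi were taken 6 to 8 weeks later. Mice of both strains lack mature lymphocytes of their own, and both groups carry transferred marrow. The sources used here name neither the donor strain nor the number of thymi behind a sample. The titles call the samples biological replicates without saying that they were separate animals, so p-values measure the spread between these samples.

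The ribosome joins a small subunit, which decodes the messenger RNA, to a large subunit, which links amino acids. Each subunit is a scaffold of ribosomal RNA covered by ribosomal proteins that are made in matched amounts, because a protein without a partner is broken down. Many of the transcripts begin with a run of pyrimidines, the 5' terminal oligopyrimidine tract, through which the mTOR kinase adjusts their translation. The family also has a large number of processed pseudogenes, so probes for a member can capture near-identical copies, and single values are uncertain for that reason.

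Annotated start sites were searched for a pyrimidine run, and 18 of 48 members had one nearby. Such a run can lie before the start, as in Rpl19 below, so this is not a count of tracts. RefSeq promoters (GRCm38.p6, 250 bases before to 50 after the start) were found for 48 of the 60 members. A run of at least 5 pyrimidines that begins with C within 5 bases of the start, on the gene's strand, was present in 20 of 57 member promoters (35.1%) and in 6027 of 32851 promoters of all genes (18.3%). Shown first are the 4 members with a run that had the largest difference between arrays described here, then the 4 with the smallest. Each window holds 30 bases around the start, and capitals mark the run.
Rps21 (chr2:180257364-180257393, plus strand): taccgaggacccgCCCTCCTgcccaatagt
Rps27l (chr9:66946071-66946100, plus strand): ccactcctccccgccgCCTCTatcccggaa
Rps6 (chr4:86857353-86857382, minus strand): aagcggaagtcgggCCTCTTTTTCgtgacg
Rpl34 (chr3:130730384-130730413, minus strand): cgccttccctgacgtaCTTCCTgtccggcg
Rps15a (chr7:118116133-118116162, minus strand): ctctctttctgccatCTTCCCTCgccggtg
Rps2 (chr17:24720048-24720077, plus strand): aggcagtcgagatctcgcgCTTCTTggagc
Rpl19 (chr11:98026695-98026724, plus strand): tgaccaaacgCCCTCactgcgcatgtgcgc
Rpl12 (chr2:32961697-32961726, plus strand): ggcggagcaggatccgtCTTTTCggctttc
The run in Rps6 is 10 bases long and begins 1 base before the start, whereas those of Rps27l and Rpl19 have 5 bases. Runs occur at both ends of the order. Over members with a promoter, the median difference between array sets was -1.33 for the 18 with a run and -1.50 for the 30 without one, and the ranges overlapped almost entirely (-4.08 to -0.19 and -3.82 to 0.36).

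The arrays did not form 1 set. Pearson correlations over 34760 probe sets were 0.976 to 0.990 among 5 of them, 0.972 between reconRAG1KO replicate 4 and reconSCID replicate 2, and 0.922 to 0.947 between these 2 and the 5. Labels name no batch for the 2 arrays, and each set holds both groups. Because the sets were found in these data, the difference between them is given as values with no test. All values are log2 of the deposited intensity, so a difference of 1 is a 2-fold change, and differences between the sets are the mean of the 2 arrays minus the mean of the 5.

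The 2 arrays read nearly the whole family low. The median level over the 60 members was 12.10, 12.00, 12.07 and 10.57 in reconRAG1KO replicates 1 to 4 and 12.07, 10.37 and 12.06 in reconSCID replicates 1 to 3. Replicate 4 of reconRAG1KO and replicate 2 of reconSCID were the low arrays in their groups, and the other 5 lay within a narrow band. In the 2 arrays 58 of 60 members were lower (37.7% of all 34760 probe sets) and 2 higher (62.3%), and 55 were lower without overlap between the sets (91.7%, against 18.7% of all probe sets). Only Rpl3l was higher without overlap (32.7% of all probe sets). The difference was at least 2-fold downward in 34 members (56.7%, against 6.22% of all probe sets) and at least 2-fold upward in 0 (1.71%). The rule for members was written with this contrast known, so these counts describe the genes and support nothing further. The median difference was -1.30 over members and 0.12 over all genes. It was -1.23 within reconRAG1KO and -1.47 within reconSCID, and 57 of 60 members were lower in both groups (5569 of all 19937 genes). With quantile normalization the median was -0.99 (0.08 over all genes) and 53 of 60 members were lower.

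**Figure D1:**
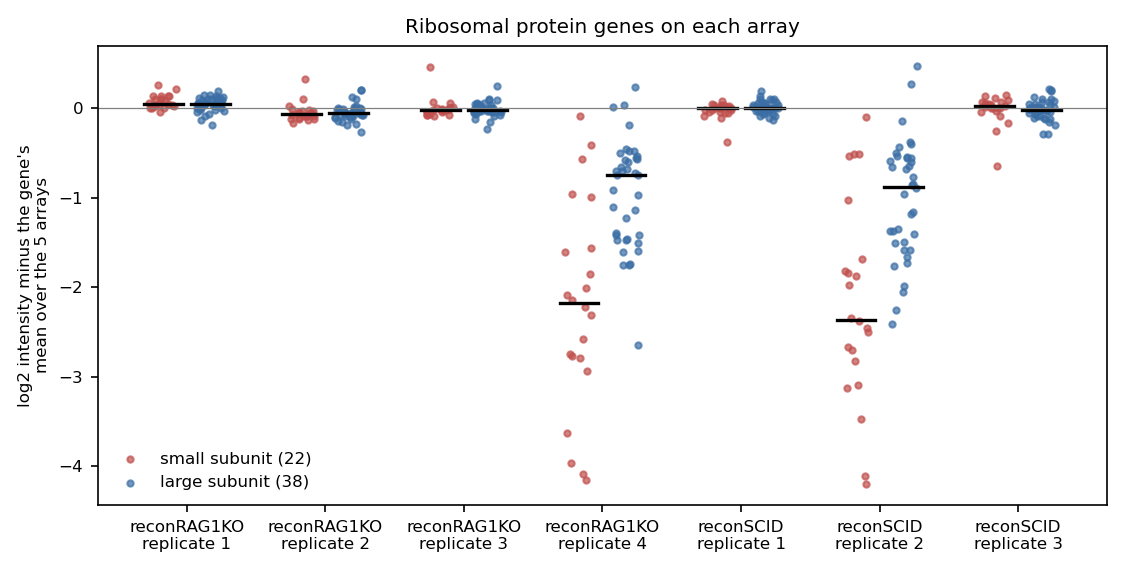
Level of each ribosomal protein gene on each of the 7 arrays, as log2 intensity minus the gene's mean over the 5 arrays. Points are genes, red for the small subunit and blue for the large, and black bars are medians. ReconRAG1KO replicate 4 and reconSCID replicate 2 lie below 0 for nearly all genes, and more so for the small subunit.

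Among the 5 arrays the members varied little. Their standard deviation over these arrays had a median of 0.083, against 0.103 over all genes, and 44 of 60 members had one of at most 0.1. The standard deviation of single members ranged from 0.02 (Rpl28 and Rps2) to 0.48 (Rps4l), and the next highest was 0.21 (Rpl7a).

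Small subunit genes lay lower than large subunit genes in the 2 arrays, each against its own level in the 5. The median difference was -2.30 over 22 small subunit members, all of them lower, and -0.78 over 38 large subunit members, of which 36 were lower. Of the 15 members lower by at least 4-fold, 13 belonged to the small subunit, and of the 10 lowest members 9 did. Both medians stayed negative under every scaling tried, at -1.79 and -0.43 with quantile normalization. The order of the subunits was the same over all 188 member probe sets, with medians of -1.68 (68 probe sets) and -1.03 (120).

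**Figure D2:**
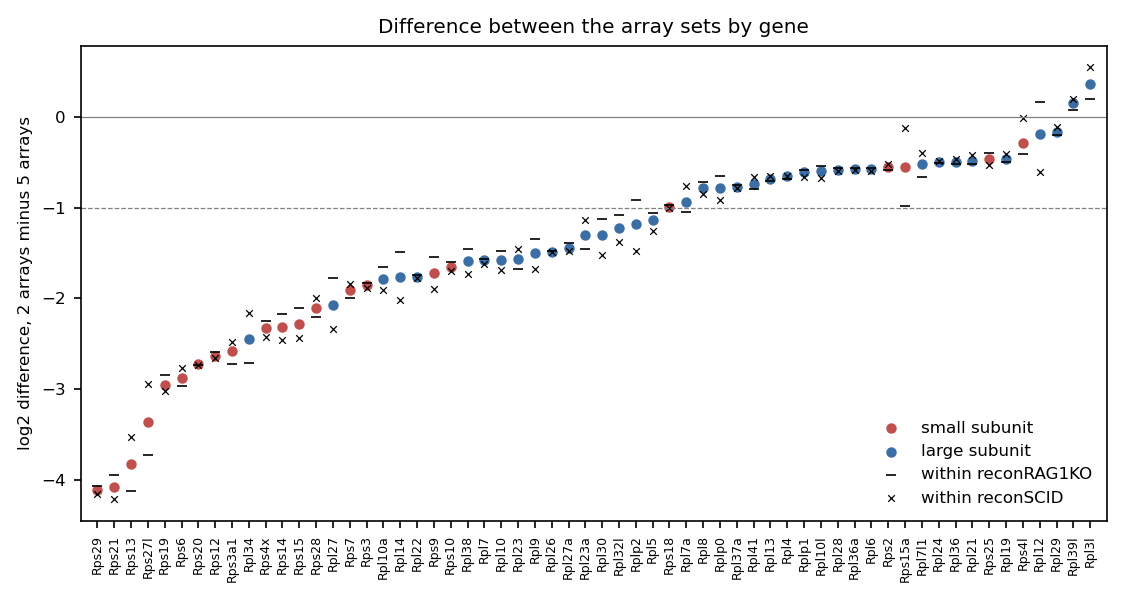
Difference between the 2 arrays and the 5 arrays for each of the 60 members, in order, on the log2 scale; the dash and the cross give the same difference within reconRAG1KO and within reconSCID. The dashed line marks a 2-fold lower level, and red small subunit genes fill 9 of the first 10 places.

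Small subunit members held the lowest values. Rps29, a zinc-binding protein of the small subunit head, measured 13.68, 13.45, 13.50 and 9.48 in reconRAG1KO and 13.62, 9.46 and 13.62 in reconSCID, both in the order of replicates. The 2 low values were nearly equal and far below the rest, a difference of -4.11 or 17.2-fold. Rps21 measured 12.05, 11.79, 11.87 and 7.95 and then 11.86, 7.71 and 11.97 in the same order. Its difference was -4.08, close to that of Rps29, although this protein has no bacterial counterpart and that of Rps29 does. For Rps13, which contacts the large subunit, the values were 11.69, 11.54, 11.56 and 7.48 in reconRAG1KO and 11.59, 8.16 and 11.78 in reconSCID. Here the reconSCID array of the pair was the less low one, and the difference was -3.82.

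Rps19 is the gene most often mutated in Diamond-Blackfan anaemia, in which too little of 1 ribosomal protein impairs red cell formation. It measured 12.18, 12.07, 12.10 and 9.27 in reconRAG1KO and 11.99, 8.91 and 11.88 in reconSCID, a difference of -2.95. Of the 19 genes listed for this disease 9 were members, with a median of -1.91, beside -2.30 over all small subunit members. At least 2-fold lower were 8 of the 9 (88.9%). The shares were 77.3% of small subunit members, 56.7% of all members and 5.22% of all genes. The exception among the 9 was Rps15a, which read 8.85, 8.62, 8.73 and 7.76 in reconRAG1KO and 8.76, 8.65 and 8.79 in reconSCID. In that gene reconRAG1KO replicate 4 was low and reconSCID replicate 2 lay within the range of the 5 arrays.

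Rps6 is the member phosphorylated by the S6 kinases downstream of mTOR. It measured 13.89, 13.98, 13.86 and 10.94 in reconRAG1KO and 13.77, 11.06 and 13.88 in reconSCID. In the probe set used the sets were clearly apart, at -2.88. All 7 probe sets of Rps6 were lower, but this was the lowest of them, and their median was -0.61. The other small subunit members among the 10 lowest were Rps27l (-3.36), a paralogue described with its kind, Rps20 (-2.72), Rps12 (-2.63) and Rps3a1 (-2.58), and each was lower without overlap. At the other end of the small subunit stood Rps2 (-0.55), which lies at the entry of the messenger RNA channel, Rps15a (-0.55), Rps25 (-0.46), used by several viral entry sites, and the paralogue Rps4l (-0.29). Rps2 and Rps25 were lower without overlap, and in Rps15a and Rps4l the sets overlapped.

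In the large subunit 17 of 38 members were lower by at least 2-fold (44.7%, against 5.22% of all genes). Rpl34, the only large subunit gene among the 10 lowest, measured 8.18, 8.22, 8.11 and 5.46 in reconRAG1KO and 8.12, 5.86 and 7.92 in reconSCID. It was lower in the 2 arrays by -2.45, although its level in reconSCID replicate 2 was above that in reconRAG1KO replicate 4. Next came Rpl27 (-2.07), Rpl10a (-1.79), Rpl14 (-1.76) and Rpl22 (-1.76). For Rpl27 the probe set used was the lowest of 3, with a median of -1.01. That of Rpl10a was the lowest of 4, with a median of -0.98. Rpl10, which completes the peptidyl transferase site late in assembly, had a difference of -1.58, and Rpl7 had the same.

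Rpl5 carries 5S ribosomal RNA into the large subunit and, when free, binds the p53 regulator Mdm2. It measured 12.06, 11.99, 12.03 and 10.97 in reconRAG1KO and 12.20, 10.94 and 12.21 in reconSCID. Its difference of -1.14 was the smallest among members lower by at least 2-fold, with Rplp2 (-1.18) and Rpl32l (-1.22) just beside it. Just short of that size stood Rps18 (-0.99), Rpl7a (-0.94) and Rpl8 (-0.78). For Rps18 the probe set used was the least low of 7, which reached -2.69 and had a median of -1.59.

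The stalk of the large subunit, built on Rplp0 with pairs of Rplp1 and Rplp2, recruits elongation factors. Rplp0 measured 13.13, 12.92, 12.99 and 12.36 in reconRAG1KO and 13.09, 12.13 and 12.98 in reconSCID. This is a difference of -0.78, and Rplp1 had -0.61. All 3 stalk genes were lower without overlap (18.7% of all probe sets), and Rplp2 by the most. Rplp2 was read from 1 probe set at only 5.13 to 6.75, with a mean below the median level of all probe sets. Its place among the 3 is therefore uncertain. Members of the tunnel exit, where the new chain leaves, had differences of -1.49 (Rpl26), -1.30 (Rpl23a) and -0.46 (Rpl19). Proteins with a bacterial counterpart (23 members) had a median of -1.50 and the 31 others, listed paralogues aside, -1.22.

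The listed paralogues did not follow the core genes as a group. Of the 6, 4 were lower and 2 were not. Rpl32l, whose symbol also ends in l, was not on the list and was lower without overlap, at -1.22. Rps27l, a p53 target related to Rps27, measured 11.12, 10.82, 10.93 and 7.23 in reconRAG1KO and 10.82, 7.77 and 10.61 in reconSCID, a difference of -3.36 that places it next after Rps13. Rpl7l1, a relative of Rpl7, had -0.52 and Rpl10l, a testis copy of Rpl10, -0.60. Rpl3l replaces Rpl3 in muscle, and it was the 1 member higher without overlap, with 5.49, 5.44, 5.49 and 5.67 in reconRAG1KO and 5.40, 5.90 and 5.31 in reconSCID. The difference was 0.36, and that of the germ cell copy Rpl39l was 0.15, with overlap. Rpl3l, Rpl39l, Rpl10l and Rplp2 were the 4 members below the median over all probe sets, and their own median difference was -0.23. All of the 56 members above that level were lower, with a median of -1.46.

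Different probe sets of 1 gene gave very different differences. The 60 members had 188 probe sets, of which 174 were lower in the 2 arrays (92.6%, against 37.7% of all probe sets). By at least 2-fold 108 were lower (57.4%, against 6.22%). In 28 of the 37 genes with several probe sets all of them were lower. Within those 37 genes the range of differences had a median of 1.71, larger than the median difference of the members themselves. Rpl13 was the extreme, with 9 probe sets from -8.75 to 0.15. Its lowest (probe set 10503249) measured 11.81, 12.19, 12.17 and 3.04 in reconRAG1KO and 12.14, 3.58 and 12.01 in reconSCID. The probe set used for Rpl13 (10531340) measured 12.51, 12.44, 12.52 and 11.78 and then 12.45, 11.82 and 12.48, a difference of only -0.68. In Rpl9 all 8 probe sets were lower, from -4.93 to -1.28, and in Rpl38 they ran from -1.59 to 0.91. The probe set used for Rps12 (-2.63) was the lowest of 7, whose median was -1.26. The size of the difference therefore belongs to a probe set, and single genes cannot be ranked finely by it.

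**Figure D3:**
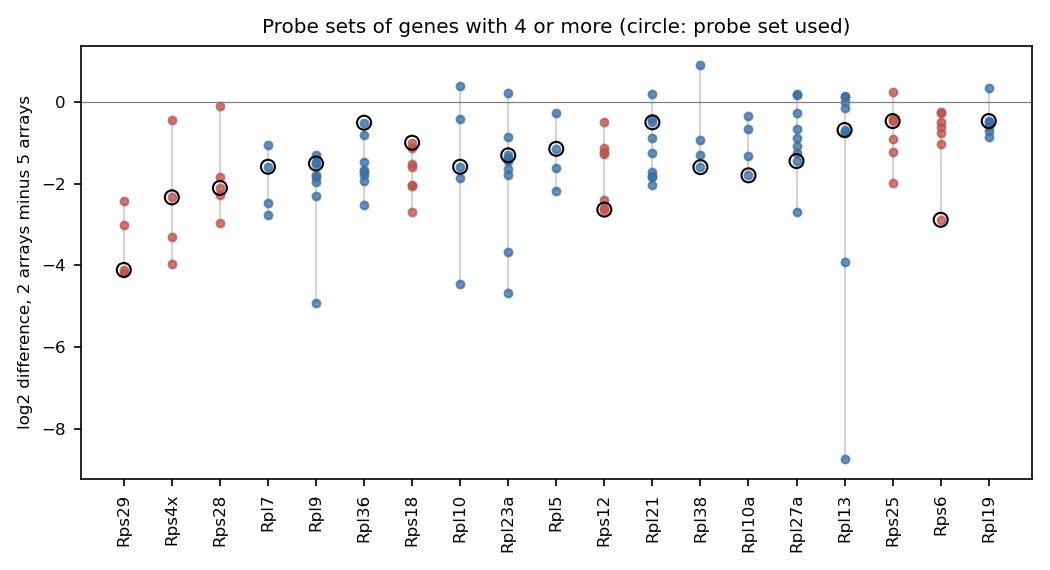
Difference between the 2 arrays and the 5 arrays (log2) for every probe set of the 19 members with at least 4 probe sets. Red is the small and blue the large subunit, and a black circle marks the probe set used for the gene; Rpl13 spans -8.75 to 0.15.

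Translation factors and mitochondrial ribosomal proteins had medians nearer 0 than the members, as did ribosome assembly genes and genes listed as ribosomal protein kinases. The respiratory chain lay close to the members in the values as deposited. Of the other cytosolic ribosome genes Rpsa, a small subunit protein, had a difference of -1.54 and Fau, whose product is cut to a small subunit protein, of -0.67. Translation factors had a median of -0.41 (-0.08 with quantile normalization), with 30 of 35 lower and 10 lower by at least 2-fold. Tpt1, whose transcript also carries a pyrimidine tract, led them at -2.37. Proteins of the mitochondrial ribosome had a median of -0.48, with 63 of 77 lower, led by Mrpl42 (-3.13). For ribosome assembly the median was -0.08 (22 of 35 genes lower), or 0.10 with quantile normalization. Genes listed by symbol as ribosomal protein kinases had 0.12, with 2 of 6 lower. Respiratory chain subunits had a median of -1.07, between the medians of small (-2.30) and large (-0.78) subunit members. Of this list 68 of 74 genes were lower and 41 by at least 2-fold. Under 2 alternatives of the processing the respiratory chain median changed in size, so its place beside the members is given for the deposited values alone. Over all genes 36.1% were lower in the 2 arrays and 5.22% by at least 2-fold.

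**Figure D4:**
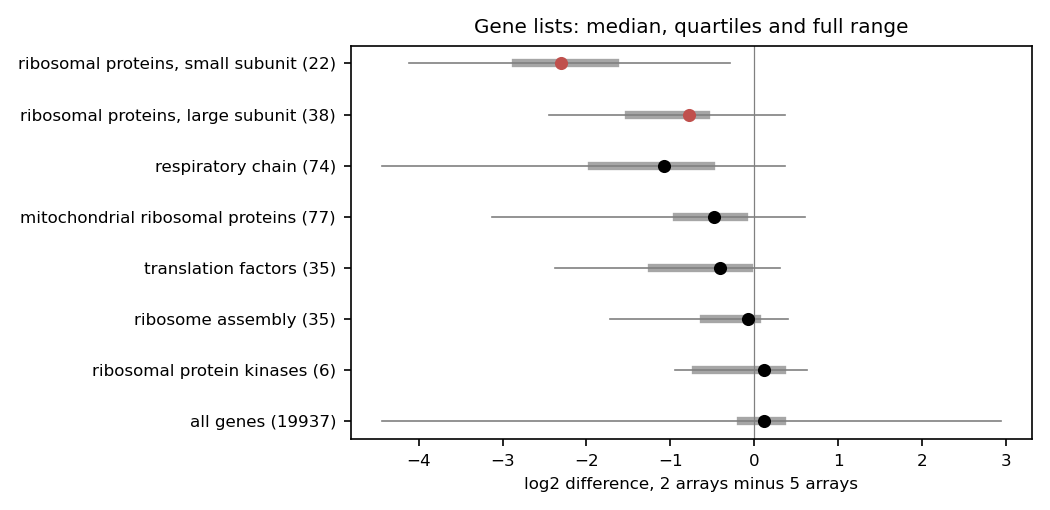
Difference between the 2 arrays and the 5 arrays (log2) for gene lists, with the number of genes in brackets. Dots are medians, thick bars the quartiles and thin lines the full range; the small subunit genes have the lowest median, -2.30, and all genes together have 0.12.

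Markers of several cell types also differed between the array sets, while the B cell and neutrophil means of the sets overlapped. The mean level of 13 medullary epithelial markers (9 higher and 4 lower, with Cd80 at -1.09) was 11.11 and 10.92 in the 2 arrays and 10.01 to 10.91 in the 5. Dendritic cell and macrophage markers (7 of 7 lower) had 8.94 and 8.51 against 9.60 to 10.50, and T cell markers (8 of 9 lower) 7.39 and 7.22 against 7.66 to 8.51. Neutrophil markers (6 of 7 lower) had 6.88 and 6.45 against 6.82 to 9.90, and B cell markers (6 of 7 lower) 6.58 and 6.79 against 6.55 to 8.71. Endothelial and fibroblast markers (6 of 7 higher) had 7.92 and 8.28 against 7.08 to 7.27, and the 1 erythroid marker measured, Alas2, 0.17 more in the 2 arrays. No marker is at 0 in these intensities. In sorted bulk samples fewer cells of a type and less RNA per cell cannot be told apart. The part of these cells in the lower ribosomal protein levels was not tested.

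The comparison of reconSCID with reconRAG1KO asks how expression in this epithelium differs where DNA-PK is defective. Levels of the ribosomal protein genes gave no called difference. By limma with Benjamini-Hochberg adjustment over 34760 probe sets, no adjusted p was under 0.05: 0 members were called higher and 0 lower (0% of all probe sets in either direction). At an unadjusted p under 0.05, 1 member was lower (1.13% of all probe sets) and 0 were higher (2.2%). Differences below are reconSCID minus reconRAG1KO. Their median over members was -0.11, with 49 of 60 lower, beside -0.01 over all genes. The 2 low arrays make up 1 of 4 arrays in reconRAG1KO and 1 of 3 in reconSCID. In a fit that takes the array set as a block the median was -0.01, with 35 of 60 lower, and it was 0.01 within the 5 arrays and -0.04 within the 2. The unblocked median moved with each array left out: it was 0.33 without reconSCID replicate 2, -0.44 without reconRAG1KO replicate 4, -0.36 and -0.37 without reconSCID replicates 1 and 3, and between -0.02 and 0.00 without any of the other 3 arrays.

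With the block 0 members passed adjustment, and 4 were lower and 3 higher at an unadjusted p under 0.05. These are 6.67% and 5% of the members, beside 5.77% and 6.53% of all probe sets, so the members' shares lay near the background. All members other than Rps4l had blocked differences from -0.27 to 0.29. In the 5 arrays alone 3 were lower and 6 higher unadjusted (6.63% and 8.87% of all probe sets), and 0 passed adjustment.

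Rps4l gave the smallest p of the family and the only groups without overlap (1.43% of all probe sets were lower without overlap and 2.09% higher, against 1 and 0 of 60 members). It is a copy related to Rps4x, the X-linked gene of a small subunit protein. It measured 8.83, 8.94, 9.07 and 8.53 in reconRAG1KO and 8.24, 8.10 and 7.97 in reconSCID. The lowest reconRAG1KO value lay above the highest reconSCID value, and the low arrays of the family did not stand out in this gene. The group means were 8.84 ± 0.23 (SD, n = 4) and 8.10 ± 0.13 (SD, n = 3). Rps4l differed by -0.74 ± 0.15 (SE), with a 95% interval from -1.09 to -0.39, an unadjusted limma p of 0.001715, which became 1 after adjustment. The blocked fit gave -0.72 (95% interval -1.02 to -0.42) at an adjusted limma p of 0.2334, so it did not pass either. Within the 5 arrays it was -0.84 and within the 2 arrays -0.43. Without single arrays it lay between -0.84 and -0.66.

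The other probe set of Rps4l (10567106) ran the same way. It measured 7.48, 7.67, 7.72 and 7.48 in reconRAG1KO and 7.41, 7.03 and 7.03 in reconSCID, again without overlap. Its difference was -0.43 ± 0.13 (SE), and limma gave an unadjusted p of 0.01501 that was 1 once adjusted. Rps4x itself measured 12.97, 12.89, 12.89 and 10.66 in reconRAG1KO and 13.00, 10.63 and 13.11 in reconSCID, where the groups overlapped and only the 2 low arrays stood out. B cell markers had a mean of 6.55 to 6.89 in reconRAG1KO and of 6.79 to 8.71 in reconSCID. Neutrophil markers had 6.88 to 9.90 and 6.45 to 7.49. The medullary epithelial markers had 10.63 to 11.11 and 10.01 to 10.92. All 13 of them were lower in reconSCID, with a median difference of -0.48, as were 7 of 7 neutrophil and 0 of 7 B cell markers. Whether any of these cell types plays a part in the values of Rps4l was not tested.

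**Figure D5:**
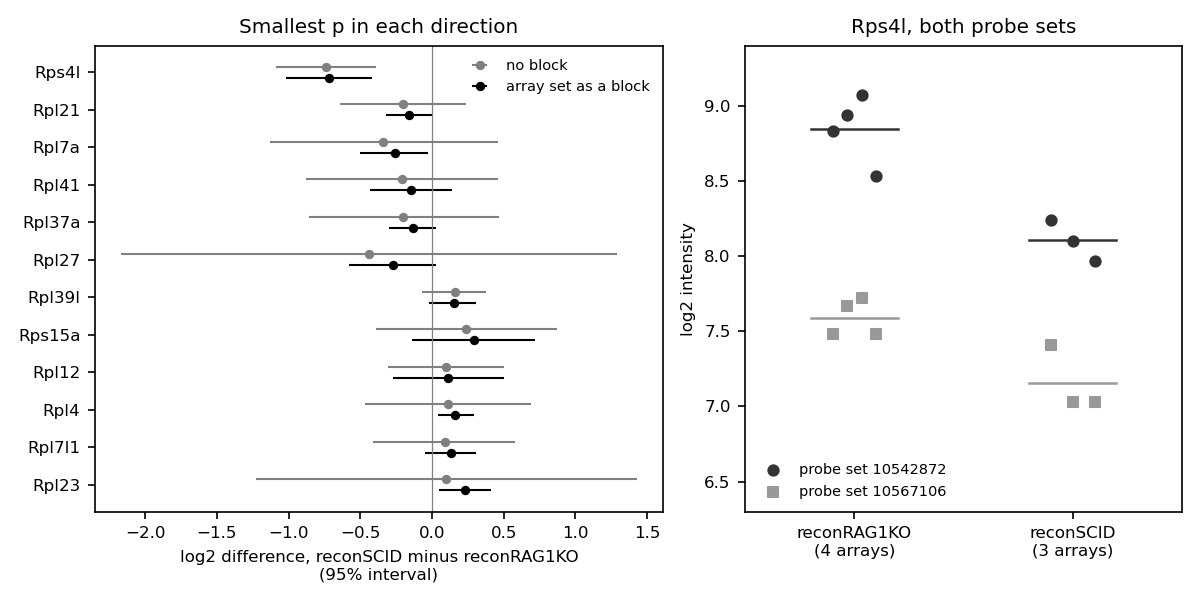
Left, difference of reconSCID minus reconRAG1KO (log2, with 95% intervals) for the 6 members of each direction with the smallest unadjusted p, without a block (grey) and blocked by array set (black). Right, log2 intensity of both Rps4l probe sets in each array, with group means as lines; all reconSCID values lie below all reconRAG1KO values of the same probe set.

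The other members with the smallest p had wide intervals without the block. On the lower side Rpl21 differed by -0.20, Rpl7a by -0.34, Rpl41 by -0.21, Rpl37a by -0.20 and Rpl27 by -0.44, and every one of these intervals included 0. On the higher side Rpl39l differed by 0.16, Rps15a by 0.24, Rpl12 by 0.10, Rpl4 by 0.11, Rpl7l1 by 0.09 and Rpl23 by 0.10, and these intervals included 0 as well. With the block the interval of Rpl7a excluded 0 (-0.50 to -0.03), as did those of Rpl4 (0.04 to 0.29) and Rpl23 (0.05 to 0.41), at adjusted limma p-values of 0.3631, 0.3109 and 0.3234. Rpl4, which lines the exit tunnel, measured 12.50, 12.50, 12.51 and 11.82 in reconRAG1KO and 12.67, 12.01 and 12.64 in reconSCID. Each reconSCID array of Rpl4 was higher than the reconRAG1KO arrays of its own set.

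Whether the group difference itself differed between the array sets was tested with a product term. By limma 0 members passed adjustment (0% of all probe sets in either direction). At an unadjusted p under 0.05, 8 members had a lower and 6 a higher group difference in the 2 arrays, or 13.3% and 10%, beside 11.5% and 9.83% of all probe sets. The largest was that of Rps15a, 0.85, with an adjusted limma p of 0.1146, followed in size by Rps27l at 0.79 and Rpl12 at -0.76. Rpl12 measured 7.69, 7.70, 7.83 and 7.89 in reconRAG1KO and 8.06, 7.47 and 8.08 in reconSCID. In the larger set both reconSCID arrays of Rpl12 lay above the 3 reconRAG1KO arrays, and in the 2 arrays the order was turned. The set of 2 arrays holds 1 array per group, so the spread in this test comes from the 5 arrays.

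The gene Prkdc, which encodes the catalytic subunit of DNA-PK, differed by 0.14 between the groups and Aire, the regulator of tissue antigens in these cells, by -0.57. Between the array sets Prkdc differed by -0.16 and Aire by 1.03, opposite in sign to the median of the ribosomal protein genes. Prkdc carries a base change in SCID mice, so its transcript level does not check the label. Median intensities of the arrays lay between 88.6 and 96.3.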

How the data were processed

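Total RNA (6 µg) of sorted cells was made into biotinylated cRNA for Affymetrix arrays, per the labels' protocols. The authors deposited linear intensities, 1 for each of 34760 probe sets on 7 arrays, with array medians of 88.6 to 96.3. How they were summarised and normalized is not given in the sources used. As 0 values were under 1, they were put on the log2 scale without a pseudocount. In the platform annotation 21640 probe sets had 1 gene symbol, 1321 several and 11799 none. Only those with 1 symbol were named. Gene IDs of 60 of 60 members were found in RefSeq (GRCm38.p6), and 0 symbols needed a change. Groups come from the sample titles. The number of arrays limits the precision.

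Groups were compared by limma (version 3.58.1, functions lmFit and eBayes; R version 4.3.3) with a two-sided test over all probe sets, with Benjamini-Hochberg adjustment and a threshold of 0.05, using all 7 arrays and no covariate. A second fit had group and array set as terms and gave the blocked values. Another fit added the product of group and array set. The fit was tested on simulated data. In 7 of 60 members at least 2 arrays held exactly the same value (11.7%, against 46.2% of all probe sets). The members, lists and tests were chosen with earlier results of these data known. Named members are the 10 lowest and those not lower between array sets, the 6 nearest a difference of -1, the 6 with the smallest p in each direction between groups, and fixed paralogues, stalk genes, Rpl5, Rps6 and Rps19. Others named stand at the ends of a range, on either side of these in the order, or had the most different probe sets, and were chosen after their values were seen. Beside them stand Aire, Prkdc and the leading genes of the comparison lists. Protein sequences were not used here.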

Additional observations from a re-analysis of the deposited data

Results flagged for a closer look

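Within reconRAG1KO, replicate 4 lay far from the other 3 in most members. The measure is the gap between the outermost sample and its nearest neighbour as a share of the group's range, and a share above Dixon's 95% critical value marks a sample far from the others of a group of 4. The family was chosen on a contrast in which replicate 4 takes part, so these shares describe that contrast again and are no test of it, and the rate of about 1 in 20 groups that chance marks does not apply to them. Of the 60 members 40 were marked (66.7%, against 31.5% of all genes), and in all 40 replicate 4 was the lowest. The median over members had a share of 0.935.

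Among small subunit genes named in the text the share was 0.971 for Rps3a1, 0.968 for both Rps12 and Rps4x, 0.965 for Rps13, 0.964 for Rps19, 0.962 for Rps6 and 0.952 for Rps20. It was 0.947 for Rps29, 0.937 for Rps21, 0.922 for Rps27l and 0.882 for Rps18. Among large subunit genes it was 0.983 for Rpl4, 0.961 for Rpl34, 0.954 for Rpl7l1, 0.944 for Rpl7 and 0.937 for both Rpl10 and Rpl5. It was 0.927 for Rpl8, 0.925 for Rpl32l, 0.919 for Rpl23, 0.909 for Rpl27 and 0.839 for Rpl22. The reconSCID group has 3 arrays and was not examined this way.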

How the results depend on the processing

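Under no alternative did a member pass adjustment in the comparison of the groups, and the smallest adjusted limma p was 0.05072, for Rps4l with array weights. Rps4l kept its direction under all 24 alternatives, from -0.84 to -0.43, and its adjusted p ran from 0.05072 to 1. Leaving out single arrays of the larger set from the fit blocked by array set was chosen after seeing the data; Rps4l then had -0.76 to -0.60. With the replicate block, in which reconRAG1KO replicate 4 has no partner, the median over members was -0.44, Rps4l had -0.84, and the direction turned for Rps15a (-0.00), Rpl4 (-0.06), Rpl7l1 (-0.08) and Rpl23 (-0.32). Deviations from the group means correlated at 0.472, -0.508 and 0.314 between the groups for replicates 1, 2 and 3. Those means include the 2 low arrays, so the values cannot decide whether replicate numbers pair the samples. Within the 2 arrays Rpl12 had -0.42 and Prkdc -0.01. Leaving out single arrays moved Rps15a from -0.00 to 0.36, Rpl4 from -0.06 to 0.32, Rpl7l1 from -0.08 to 0.22, Rpl23 from -0.32 to 0.59, Rpl41 from -0.40 to 0.01, Rpl37a from -0.38 to 0.06, Rpl27 from -0.89 to 0.34 and Rpl12 from -0.01 to 0.30. Both ends came without 1 of the 2 low arrays, except the highest of Rps15a (without reconRAG1KO replicate 1) and the lowest of Rpl12 (without reconSCID replicate 3). The cause was not tested.

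Between the array sets the medians over all, small and large subunit members stayed negative throughout. Quantile normalization gave -0.99, -1.79 and -0.43, with 7 members not lower. Centring on the array median, which moved the median of all genes from 0.12 to 0.01, gave -1.40 over all and -0.88 over large subunit members. Without low probe sets the values were -1.46 and -0.86, with 0 not lower, since the members that were not lower were left out. Averaging a gene's probe sets gave -1.79 for the small and -0.99 for the large subunit. The probe set highest in the 2 arrays gave -1.06 over all and -1.75 over small subunit members, and reconSCID alone gave -1.47 and -2.43. Without single arrays the 3 medians ranged from -1.36 to -1.28, -2.36 to -2.18 and -0.87 to -0.74, and 2 to 3 members were not lower. Among the members named by the rule, for which alternatives were computed, the sign turned in Rpl12 alone (0.16 within reconRAG1KO, 0.02 without reconSCID replicate 2).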

Other observations

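Of 5 motifs other than the pyrimidine run, CCGGAAG and CTTTCC had the largest gaps between member promoters and all promoters, with no test. The letters CCGGAAG, found in sites of ETS-family factors, stood on either strand in 19 of 57 member promoters (33.3%) and in 2910 of 32851 promoters of all genes (8.86%). The letters CTTTCC stood on either strand in 45.6% of member promoters and 26.6% of all, and CTTTTC in 24.6% and 21.8%. AAGATGGC stood in 5.26% and 2.75%, and TATAAA in 10.5% and 13.6%. Matches can overlap one another or the run. These are matches of letters over 300 bases, and no binding was measured. The 5 motifs were not in the planned design and were added with results of these data known.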
